A study of Homo sapiens with 12 samples.

Results

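The aryl hydrocarbon receptor pathway was followed in NS-SV-AC cells, an established human line derived from salivary gland acinar cells, through 6 genes: AHR, ARNT, AHRR, CYP1A1, CYP1B1 and TIPARP. The members are the identifiers that carry these symbols, and the pathway was picked with earlier results of these data known. They correspond to 7 of the 60609 gene identifiers of the annotation, because AHRR is listed under 2 identifiers that were kept apart. All 7 passed the filter on low values, an abundance of 1 TPM or more in 2 libraries or more (TPM divides by transcript length and is scaled to the same sum in each library), as did 17185 identifiers in all.

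The study addressed double-stranded RNA of mitochondrial origin in Sjögren's syndrome and comprised 12 poly(A) RNA libraries in 6 groups of 2. Cells of the same line received the vehicle DMSO, the nucleoside 2'-C-methyladenosine (2-CM) or the plant polyphenol resveratrol (RES). The compound was given at 20 micromolar, as the label's unit was read, 24 h ahead of transfection and once more at transfection. Transfection was with poly I:C, a synthetic RNA duplex that mimics viral RNA, for 14 h or with the control named depc, and growth lasted 48 h. The groups are therefore DMSO depc, DMSO poly I:C, 2-CM depc, 2-CM poly I:C, RES depc and RES poly I:C, and every group received a compound or the vehicle and a transfection. All libraries came from 1 cell line, and nothing in the labels says that replicates were separate cultures, so p-values measure only the spread between these libraries, which may be technical.

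AHR is a ligand-activated transcription factor of the bHLH-PAS family that rests in the cytosol with the chaperone HSP90 and its partner PTGES3. After binding a ligand, such as a dioxin, a polycyclic aromatic hydrocarbon or a tryptophan metabolite, it enters the nucleus, pairs with ARNT and binds the xenobiotic response element, whose core is GCGTG. CYP1A1 and CYP1B1, which oxidise aromatic compounds, are classical targets, and AHRR and TIPARP are targets that restrain the receptor, AHRR by competing for ARNT and TIPARP by ADP-ribosylation. Resveratrol has been described as an antagonist of AHR.

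The core GCGTG was sought for all members on both strands (it reads CACGC on the other) in the RefSeq promoter table on hg38. The 2 windows printed below belong to CYP1A1 and TIPARP, target genes whose differences with poly I:C under 2-CM had opposite signs. The CYP1A1 difference was not called. Each printed window shows only the 300 upstream bases with most cores, not every core of its gene. The table matched 5 of the 6 symbols, and CYP1B1 was not among them. Of all 35116 windows from 250 bases before to 50 bases after a start site, 36.5% held at least 1 core and 12.7% held 2 or more. The windows of CYP1A1, TIPARP (start 156674590) and the AHRR start 322610 held 1, 2 and 2 cores, that of ARNT held 0, and that of AHR held 1, after its start. Within 1500 bases upstream, CYP1A1 held 10 cores, AHRR (start 322610) 8, TIPARP (start 156674590) 6, ARNT 5 and AHR 0. The other AHRR start, 321714, held 1 core in its window and 4 upstream, and the TIPARP starts 156674926 and 156676664 held 0 in their windows and 6 and 2 upstream. The share of all start sites with as many cores in 1500 bases was not counted. The 300-base window with most cores held 5 for CYP1A1 and 5 for TIPARP (starts 156674590 and 156674926). Over all start sites, 1.76% had a window with 5 or more. It held 3 for ARNT and for AHRR (start 322610), beside 14.6% with 3 or more, and 0 for AHR. It held 2 for AHRR (start 321714) and TIPARP (start 156676664), beside 37.4% with 2 or more. The CYP1A1 window is chr15:74726489-74726788 on the minus strand, from -1260 to -961 relative to the start at 74725528, and the TIPARP window is chr3:156674290-156674589 on the plus strand, from -300 to -1 relative to its start. A match is a description of letters and not a bound site. Both are printed 5′ to 3′ on the gene's strand, with each core in capitals.
CYP1A1 upstream window: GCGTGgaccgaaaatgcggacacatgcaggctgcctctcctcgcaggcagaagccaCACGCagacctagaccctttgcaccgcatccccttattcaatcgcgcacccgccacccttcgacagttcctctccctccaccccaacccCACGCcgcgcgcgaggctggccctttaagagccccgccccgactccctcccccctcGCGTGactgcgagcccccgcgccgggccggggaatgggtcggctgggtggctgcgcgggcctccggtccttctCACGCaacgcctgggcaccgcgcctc
TIPARP upstream window: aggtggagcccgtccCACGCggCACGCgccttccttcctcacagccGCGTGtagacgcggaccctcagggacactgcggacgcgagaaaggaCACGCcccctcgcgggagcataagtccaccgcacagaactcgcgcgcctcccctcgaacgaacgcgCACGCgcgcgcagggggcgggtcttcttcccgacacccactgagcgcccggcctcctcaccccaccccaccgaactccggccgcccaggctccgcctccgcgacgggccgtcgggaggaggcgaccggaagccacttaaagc

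The labelled cell type was checked against marker genes. The acinar markers AQP5 and PRB1 were listed at 0 in all 12 libraries, AMY1A, AMY1B and AMY1C reached at most 0.0467 TPM, and CHRM3 at most 0.0916 TPM. SLC12A2 ran from 1.30 to 8.11 TPM and BHLHA15 from 0.507 to 2.69 TPM. Simple epithelial keratins were abundant (KRT8 at 630 to 1958 TPM, KRT18 at 466 to 1571 TPM), while EPCAM reached at most 1.23 TPM and CDH1 at most 0.596 TPM. KRT5 was listed at 0 in all 12 libraries, and the ductal keratins KRT7 and KRT19 reached at most 2.16 and 0.243 TPM. Of the myoepithelial and mesenchymal markers, VIM ran from 386 to 819 TPM, COL1A1 from 15.9 to 100 TPM and ACTA2 from 13.5 to 28.6 TPM. The immune marker PTPRC was listed at 0 throughout, PECAM1 reached at most 0.0696 TPM, and CD14 ran from 7.05 to 15.8 TPM. The secretory markers AQP5, PRB1 and the amylases were thus at or near 0, whereas the ion cotransporter SLC12A2 and BHLHA15, a transcription factor of secretory cells, passed the filter, and the cells are called by the line's name below.

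Depth came to between 31.2 and 49.4 M estimated reads per library. Replicates differed along gene GC content: across tested genes, the Spearman correlation of GC content with the difference between replicates ran from -0.787 in RES depc to 0.779 in RES poly I:C, and between 246 and 4951 genes lay 1 log2 unit or more apart. For this reason fold changes of the members are given with the median of the genes in the same of 20 GC bins, and those of other genes with their value after GC correction. The part of GC content in the results was not tested beyond these values and a fit after GC correction.

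The receptor, AHR (ENSG00000106546.14, chr7:16916359-17346152, plus strand, hg38), was a low-abundance transcript whose group mean was highest after 2-CM with poly I:C. Transcript ENST00000242057.9 carried 91.2% of its TPM. The DMSO depc libraries had 4.38 and 2.22 TPM, and the DMSO poly I:C libraries 4.09 and 1.17 TPM. The 2-CM depc libraries had 1.35 and 1.06 TPM, and the 2-CM poly I:C libraries 12.2 and 7.90 TPM. The RES depc libraries had 7.15 and 1.86 TPM, and the RES poly I:C libraries 3.10 and 8.80 TPM. The 2-CM poly I:C group did not overlap the 2-CM depc group, RES poly I:C replicate 2 lay between the 2 libraries of 2-CM poly I:C, and the 4 RES libraries ran from 1.86 to 8.80 TPM, and every neighbouring pair in the order of group means overlapped. For this separation, and for the orders of libraries given for the other members below, the share of all genes that do the same was not counted. In such bulk libraries, fewer cells expressing a gene and less RNA per cell cannot be told apart.

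ARNT (ENSG00000143437.21, chr1:150809713-150876708, minus strand), the partner that AHR needs to bind DNA and that HIF1A also uses, had the narrowest range after AHRR ENSG00000063438.17, a ratio of 2.98 between the highest and the lowest library. Its level was 13.1 and 7.92 TPM in DMSO depc, 11.2 and 8.91 TPM in DMSO poly I:C, and 10.5 and 6.57 TPM in 2-CM depc. After 2-CM with poly I:C it was 18.2 and 18.3 TPM, against 19.6 and 10.3 TPM in RES depc and 13.2 and 16.3 TPM in RES poly I:C. The highest ARNT library was RES depc replicate 1 and the lowest 2-CM depc replicate 2. ENST00000358595.10 held 61.6% of ARNT TPM and ENST00000354396.6 held 24.4%, the latter listed at 0 in 6 libraries.

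The repressor AHRR was annotated as 2 overlapping identifiers on the plus strand of chromosome 5. The long transcript of 5661 bases, ENST00000316418.9, belongs to ENSG00000286169.1 (chr5:271670-438291) and held 69.7% of its TPM, while the leading transcripts of ENSG00000063438.17 (chr5:321759-435110), ENST00000514523.1 and ENST00000515206.5, are 563 and 462 bases long and held 42.7% and 30.9%. ENST00000505113.5, of 2173 bases, held 26.0% of the TPM of ENSG00000286169.1 and was listed at 0 in 6 libraries. StringTie had to divide reads between the 2 identifiers, and ENSG00000286169.1 also overlaps PDCD6, which reached 127 TPM, so both AHRR values are uncertain. The identifier ENSG00000286169.1 had 7.68 and 7.84 TPM in DMSO depc, 6.66 and 3.57 TPM in DMSO poly I:C, 11.1 and 6.76 TPM in 2-CM depc, and 7.78 and 8.73 TPM in 2-CM poly I:C. It had 10.5 and 6.83 TPM in RES depc and 3.43 and 2.92 TPM in RES poly I:C, the lowest group. The identifier ENSG00000063438.17 had 7.73 and 10.5 TPM in DMSO depc, 6.89 and 8.61 TPM in DMSO poly I:C, 8.96 and 12.8 TPM in 2-CM depc, and 11.2 and 10.9 TPM in 2-CM poly I:C. All 4 RES libraries of ENSG00000063438.17 lay between 5.01 and 5.08 TPM, below each of the other 8 libraries. They rested on 107 and 95.2 estimated reads in RES depc and on 89.8 and 78.2 in RES poly I:C. How close these 4 values lie is therefore uncertain.

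CYP1A1 (ENSG00000140465.14, chr15:74719542-74725536, minus strand), the enzyme most often read as a sign of AHR activity, overlapped no other annotated gene and was low throughout, at 0.680 to 7.26 TPM. The libraries had 3.54 and 4.45 TPM in DMSO depc, 1.83 and 1.12 TPM in DMSO poly I:C, and 7.26 and 6.63 TPM in 2-CM depc. After 2-CM with poly I:C they had 4.16 and 3.56 TPM, against 1.06 and 2.14 TPM in RES depc and 0.997 and 0.680 TPM in RES poly I:C. Under DMSO, 2-CM and RES each poly I:C library lay below each depc library in TPM. Within each transfection each RES library lay below each 2-CM library. Under RES the nearest libraries were at 0.997 and 1.06 TPM, so that order is uncertain. RES depc replicate 1 rested on 74.8 estimated reads of 46.25 M, and RES poly I:C replicate 1 on 65.9 of 40.1 M. RES depc replicate 2 rested on 76.0. In the order of group means, 2-CM depc stood clear of DMSO depc, which overlapped 2-CM poly I:C. RES depc overlapped DMSO poly I:C, and RES poly I:C stood below all others. The lowest library rested on 35.0 estimated reads and the highest on 613. ENST00000379727.8 held 58.5% of CYP1A1 TPM and was listed at 0 in 3 libraries. ENST00000395048.6 held 24.3% and was listed at 0 in 1 library.

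CYP1B1 (ENSG00000138061.12, chr2:38066973-38109902, minus strand), which oxidises polycyclic hydrocarbons and estradiol, had the highest mean over the 12 libraries, 30.6 TPM. Its median of 17.3 TPM was also the highest, beside 12.2 TPM for ARNT, but ARNT exceeded it in both RES groups. It varied most, by a ratio of 30.5 between the highest and lowest library. It had 48.4 and 27.8 TPM in DMSO depc, 29.8 and 8.87 TPM in DMSO poly I:C, and 20.3 and 14.4 TPM in 2-CM depc. After 2-CM with poly I:C it had 102 and 83.2 TPM, against 10.2 and 3.35 TPM in RES depc and 4.94 and 13.6 TPM in RES poly I:C. The 2-CM poly I:C group stood clear of DMSO depc, the next in order, and each RES depc library lay below each DMSO depc library. CYP1B1-AS1 lies on the opposite strand and reached 6.78 TPM. The libraries were stranded, but no header states that strand was used, so the values at hand may mix reads of the pair.

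TIPARP (ENSG00000163659.13, chr3:156673235-156706770, plus strand), a mono-ADP-ribosyltransferase also known as PARP7, had 11.5 and 6.91 TPM in DMSO depc, 15.9 and 3.97 TPM in DMSO poly I:C, and 5.88 and 4.71 TPM in 2-CM depc. After 2-CM with poly I:C it reached 26.2 and 23.9 TPM, against 9.65 and 2.37 TPM in RES depc and 4.43 and 13.8 TPM in RES poly I:C. The 2-CM poly I:C libraries were above the other 10, and the remaining groups overlapped their neighbours. Over all genes, 37.5% were called higher with poly I:C under 2-CM (limma). ENST00000295924.12 held 98.8% of its TPM, and TIPARP-AS1 on the opposite strand reached 3.19 TPM.

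**Figure D1:**
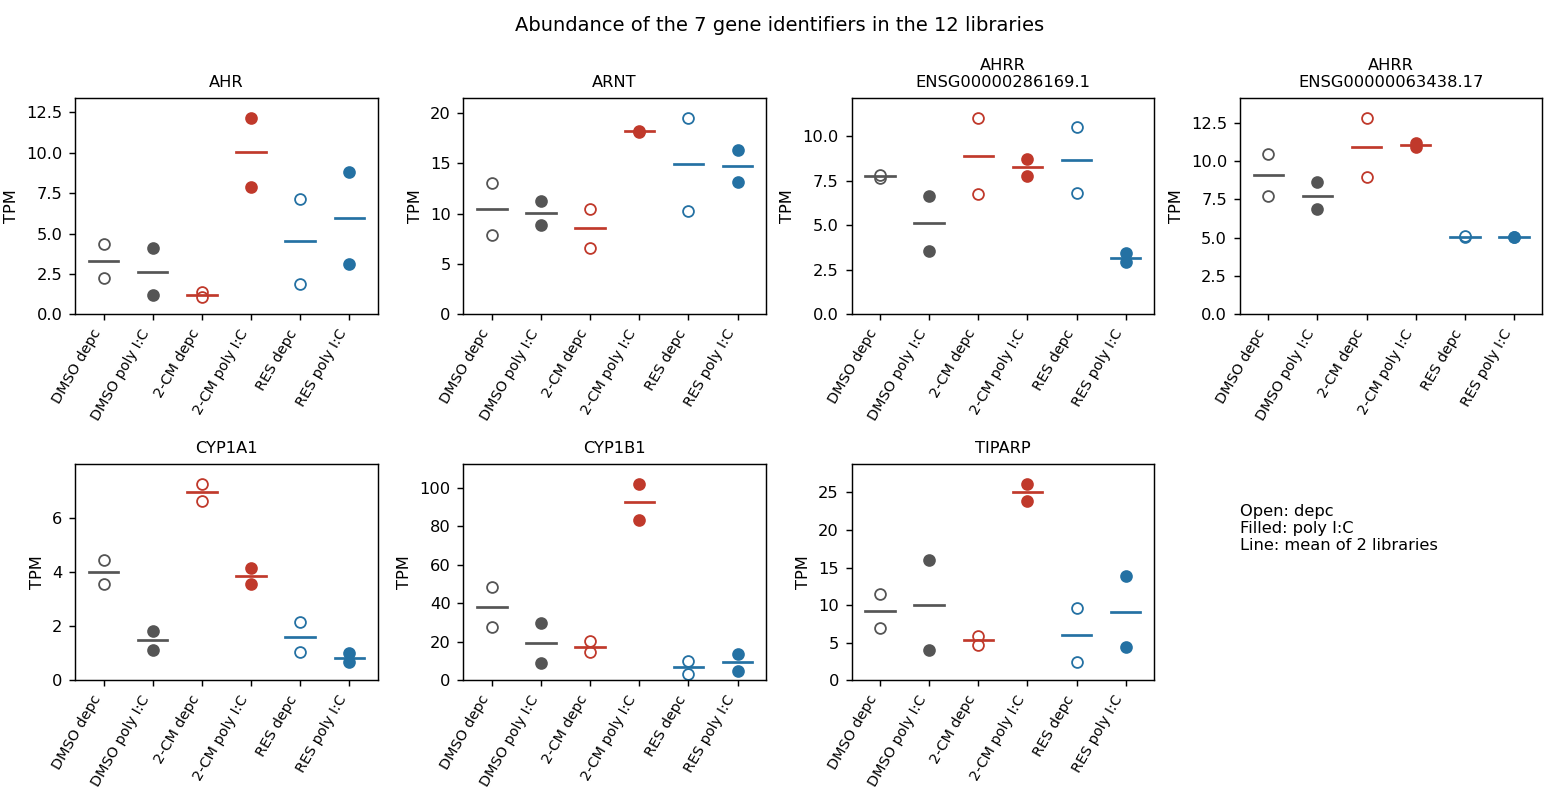
Abundance in TPM (vertical axes, linear from 0) of the 7 gene identifiers in each library, by group (horizontal axes), with open points for depc, filled points for poly I:C and a line at the mean of 2 libraries. CYP1B1 reached 102 and 83.2 TPM after 2-CM with poly I:C, and the 4 RES libraries of AHRR ENSG00000063438.17 lay between 5.01 and 5.08 TPM.

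Poly I:C against depc under 2-CM was the comparison with most calls. AHR, ARNT, CYP1B1 and TIPARP rose, and CYP1A1 did not pass the test. Differences are log2 fold changes of TPM plus 1 with their standard errors and limma p-values under Benjamini-Hochberg adjustment over all genes tested, with n = 2 against 2 libraries in a fit of all 12. CYP1B1 rose by 2.36 ± 0.659 (adjusted p = 0.0296), where genes of the same GC bin had a median of 0.88. AHR rose by 2.30 ± 0.627 (adjusted p = 0.0290), beside a same-bin median of 1.80. TIPARP rose by 2.05 ± 0.720 (adjusted p = 0.0437), beside 1.64, and ARNT by 1.04 ± 0.358 (adjusted p = 0.0412), beside 0.71. CYP1A1 had a difference of -0.71 ± 0.270 (adjusted p = 0.0541), and its GC bin had a median of 0.01. AHRR ENSG00000286169.1 had a difference of -0.07 (adjusted p = 0.876, same-bin median -0.43) and ENSG00000063438.17 of 0.04 (adjusted p = 0.899, same-bin median -0.31), and the sign of both depended on the processing.

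These 4 of 7 called members stand beside 49.3% of all genes called in this comparison, and 37.5% of all genes were called higher. The members' median was 1.04, against 0.61 over all genes tested. After GC correction 1 member was called, CYP1B1 at 1.46 (adjusted p = 0.0260), beside 29.1% of all genes, while AHR was at 0.50 (adjusted p = 0.0578), TIPARP at 0.40 (adjusted p = 0.256) and ARNT at 0.32 (adjusted p = 0.188). CYP1A1 passed at -1.22 with upper-quartile scaling (adjusted p = 0.0235) and at -1.40 with median-of-ratios scaling (adjusted p = 0.0250), where ARNT was at 0.46 and 0.26 and missed the threshold, beside 44.2% and 43.8% of all genes called. TIPARP missed it at 1.27 with median-of-ratios scaling (adjusted p = 0.0613), at 2.23 with a pseudocount of 0.1 (adjusted p = 0.0525, beside 45.7% of all genes) and without either DMSO depc replicate (adjusted p = 0.0574 and 0.0575), libraries outside this comparison. Those scalings moved the median of all genes from 0.61 to 0.18 and 0.03, and the split of called genes from 6440 higher and 2035 lower to 4182 and 3407, and to 3484 and 4046. CYP1A1 also passed with FPKM (52.7% of all genes called), with voom, with the compared groups alone (69%) and without either RES depc replicate, at -1.07 to -0.71. With voom ARNT missed the threshold, so 4 members were called there too, beside 49.4% of all genes. AHRR ENSG00000286169.1 passed with median-of-ratios scaling, at -0.82 (adjusted p = 0.0356). Without a filter on low genes 0 members were called, beside 1.61% of all genes. Without either 2-CM depc replicate, or without either 2-CM poly I:C replicate, 0 members were called, beside 0.215% to 0.268% of all genes, and the lone library of 1 arm is then assumed to vary like the others. The differences themselves then ran from 2.01 to 2.58 for AHR, 2.13 to 2.60 for CYP1B1, 1.92 to 2.19 for TIPARP and 0.74 to 1.34 for ARNT, with adjusted p of 0.0792 to 0.224. In these 5 fits calls were few over all genes too.

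In the authors' deposited table for 2-CM, 5 of 7 members had an adjusted p under 0.05, beside 46.4% of its genes. The authors' deposited table gives AHR at 2.07 (adjusted p = 2.57e-15), CYP1B1 at 1.58 (7.03e-15) and TIPARP at 1.40 (1.11e-11) on the log2 scale, all higher with poly I:C. In the authors' deposited table CYP1A1 is at -1.72 (4.07e-10) and AHRR ENSG00000286169.1 at -0.66 (0.00290), both lower, while ARNT is at 0.14 (0.669). The sign of CYP1A1 against that of AHR, CYP1B1 and TIPARP was thus the same in the deposited table and in the values above. Both come from the same 2-CM libraries, so the shared signs are not independent support.

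Under DMSO, 0 members passed (limma), beside 4.08% of all genes, and 1 had an unadjusted p under 0.05. That gene was CYP1A1, at -1.02 ± 0.270 (adjusted p = 0.0760) beside a same-bin median of -0.26. It passed without RES depc replicate 1 (adjusted p = 0.0486) and without RES depc replicate 2 (adjusted p = 0.0470), libraries that enter only the shared variance, beside 5.28% and 5.04% of all genes. CYP1B1 had a difference of -1.11 ± 0.659 (adjusted p = 0.417), beside a same-bin median of 0.02. That value moved with single libraries, to -0.29 without DMSO poly I:C replicate 2, -0.72 without DMSO depc replicate 1 and -1.93 without DMSO poly I:C replicate 1. In the authors' deposited table for DMSO, 0 members were under 0.05, beside 1.25% of its genes, with CYP1A1 at -1.27 (adjusted p = 0.234).

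Under RES, 0 members passed (limma), beside 0.442% of all genes, and 1 had an unadjusted p under 0.05. This was AHRR ENSG00000286169.1, at -1.19 ± 0.331 (adjusted p = 0.170) beside a same-bin median of -0.43. It was at -0.75 after GC correction (adjusted p = 0.284), -0.63 with voom and -0.67 with both identifiers summed. In the authors' deposited table for RES, 0 members were under 0.05, beside 0.363% of its genes. Estimated reads with voom called 0 members under DMSO, beside 1.4% of all genes, and 0 under RES, beside 0.332%.

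**Figure D2:**
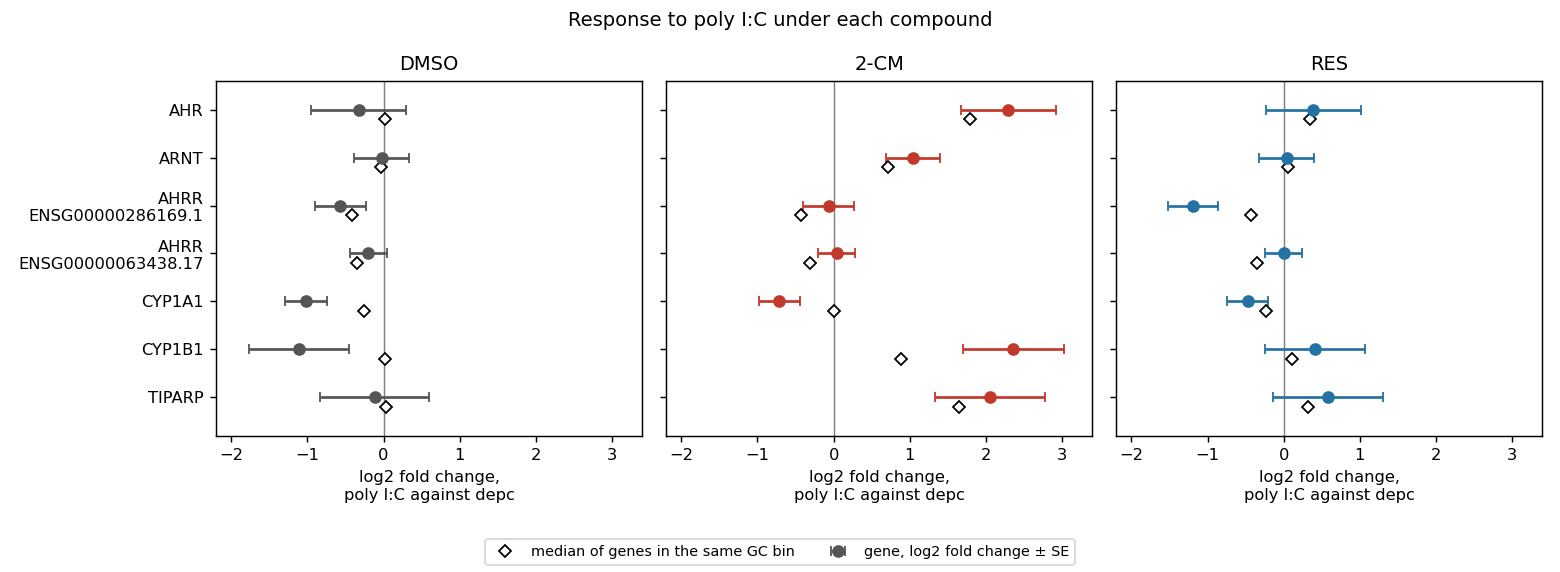
Log2 fold change of poly I:C against depc (horizontal axes) for each gene identifier under DMSO, 2-CM and RES, with bars of 1 standard error from limma and open diamonds at the median of genes in the same GC bin. Under 2-CM the points of AHR, ARNT, CYP1B1 and TIPARP lie at 2.30, 1.04, 2.36 and 2.05, while CYP1A1 lies at -0.71.

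Averaged over the 3 compound conditions, 2 of 7 members were called, beside 31.2% of all genes, and both fell, beside 17.8% of all genes called lower. CYP1A1 fell by 0.73 ± 0.156 (adjusted p = 0.0111), lower with poly I:C in all 3 group means, and its same-bin median was -0.15. It was called in every alternative and with each library left out, at -1.01 to -0.58. AHRR ENSG00000286169.1 fell by 0.61 ± 0.191 (adjusted p = 0.0420), beside a same-bin median of -0.41. That call was lost after GC correction, at -0.17 (adjusted p = 0.540), and without a filter on low genes (adjusted p = 0.0855), where 9.14% of all genes were called. It was also lost without 9 of the 12 libraries in turn, which were both DMSO depc replicates, DMSO poly I:C replicate 2, all 4 of 2-CM, RES depc replicate 1 and RES poly I:C replicate 2, with adjusted p up to 0.107. After GC correction 36.7% of all genes and 2 members were called, CYP1A1 at -0.58 (adjusted p = 0.0132) and AHRR ENSG00000063438.17 at 0.30 (adjusted p = 0.0409). The latter was at -0.05 (adjusted p = 0.767) before the correction, which turned its direction. AHR was at 0.79 (adjusted p = 0.113) and TIPARP at 0.84 (adjusted p = 0.134) on average, and 0.06 and 0.18 after GC correction. With 1 library left out AHR ran from 0.535 to 1.04 and TIPARP from 0.545 to 1.13. Both crossed the threshold without RES depc replicate 1, and TIPARP also without DMSO poly I:C replicate 2. In those fits more of all genes were called as well. With both AHRR identifiers summed, an alternative chosen after seeing the data, the averaged difference was -0.35 (adjusted p = 0.0467).

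The responses under 2-CM and RES were compared with that under DMSO directly. For 2-CM against DMSO, 0 members passed (limma), beside 0.0116% of all genes, 2 had an unadjusted p under 0.05 and voom called 0. CYP1B1 had a difference of responses of 3.48 ± 0.932 (adjusted p = 0.161), from -1.11 under DMSO and 2.36 under 2-CM, and AHR one of 2.63 ± 0.887 (adjusted p = 0.161), with same-bin medians of 0.90 and 1.74. GC correction left CYP1B1 at 2.58 (adjusted p = 0.0802) and AHR at 0.85 (adjusted p = 0.0995). With a library left out the CYP1B1 value ran from 2.65 to 4.30, and the same pair of DMSO poly I:C libraries set both ends. For RES against DMSO, 0 members passed (limma), beside 0% of all genes, with 0 at an unadjusted p under 0.05 and 0 by voom. These contrasts share their DMSO libraries.

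RES against DMSO gave lower values of the 2 cytochromes and of AHRR ENSG00000063438.17 that missed the threshold, and their outcome depended on the processing. With depc, 0 members passed (limma), beside 1.03% of all genes, 3 had an unadjusted p under 0.05 and voom called 0. CYP1B1 had a difference of -2.43 ± 0.659 (adjusted p = 0.114), CYP1A1 of -0.97 ± 0.270 (adjusted p = 0.125) and AHRR ENSG00000063438.17 of -0.73 ± 0.244 (adjusted p = 0.192), while their GC bins had medians of 0.18, 0.17 and 0.21. After GC correction these 3 were called, at -2.62 (adjusted p = 0.00403), -1.15 (adjusted p = 0.0180) and -0.94 (adjusted p = 0.00933), beside 12.9% of all genes. With poly I:C, 0 members passed (limma), beside 0.157% of all genes, with 0 at an unadjusted p under 0.05 and 0 by voom. CYP1B1 was at -0.91 (adjusted p = 0.613) and CYP1A1 at -0.42 (adjusted p = 0.559), smaller than with depc, a gap that was not called in the test of RES against DMSO responses above. They were at -1.15 (adjusted p = 0.113) and -0.64 (adjusted p = 0.152) after GC correction. With 1 library left out they ran from -1.73 to -0.08 and from -0.63 to -0.21, lowest without DMSO poly I:C replicate 2 and nearest to 0 without replicate 1 of that group. After GC correction 1 was called there, AHRR ENSG00000063438.17 at -0.74 (adjusted p = 0.0341) from -0.53 (adjusted p = 0.400) before it, beside 7.82% of all genes.

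Averaged over depc and poly I:C, 0 members passed for RES against DMSO (limma), beside 7.91% of all genes, and 3 had an unadjusted p under 0.05. CYP1B1 had a difference of -1.67 ± 0.466 (adjusted p = 0.0646), CYP1A1 of -0.69 ± 0.191 and AHRR ENSG00000063438.17 of -0.63 ± 0.172, the last 2 both with an adjusted p of 0.0618. The same-bin medians were 0.22, 0.21 and 0.22, beside 0.21 over all genes tested. These genes were lower, while the medians of their bins and of all genes were higher. With upper-quartile and median-of-ratios scaling the median over all genes was 0.0148 and 0.0119. After GC correction 4 members were called, beside 22.5% of all genes: CYP1B1 at -1.88 (adjusted p = 0.00172), CYP1A1 at -0.89 (adjusted p = 0.00660), AHRR ENSG00000063438.17 at -0.84 (adjusted p = 0.00161) and TIPARP at -0.59 (adjusted p = 0.0476), which was at -0.38 (adjusted p = 0.718) before the correction. CYP1B1 was called with FPKM (adjusted p = 0.0456), upper-quartile scaling (0.0204) and median-of-ratios scaling (0.0163), beside 5.01%, 2.53% and 2.2% of all genes, and voom called 1, CYP1A1 at -1.50 (adjusted p = 0.0151), beside 5.43% of all genes. CYP1B1 also passed without DMSO poly I:C replicate 2 (adjusted p = 0.0486) and without RES depc replicate 1 (0.0484), and CYP1A1 without RES depc replicate 2 (0.0354). AHR and ARNT were not among the genes lower with RES, at 0.57 ± 0.444 (adjusted p = 0.504) and 0.48 ± 0.253 (adjusted p = 0.312), with same-bin medians of 0.22 and 0.21. Leaving out 1 library moved AHR to between 0.20, without RES depc replicate 1, and 0.95, without RES depc replicate 2, and ARNT to between 0.26 and 0.69, without the same libraries.

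2-CM against DMSO left the members without a call. With depc, 0 passed (limma), beside 0.0349% of all genes, with 1 at an unadjusted p under 0.05 and 0 by voom. With poly I:C, 0 passed (limma), beside 0.105% of all genes, with 3 at an unadjusted p under 0.05 and 0 by voom. CYP1B1 had a difference of 2.42 ± 0.659 there (adjusted p = 0.0999) and CYP1A1 of 0.98 ± 0.270 (adjusted p = 0.101), beside same-bin medians of 0.69 and 0.33. The CYP1B1 value was 1.60 without DMSO poly I:C replicate 2 and 3.24 with replicate 1 of that group left out. After GC correction CYP1B1 was called at 1.73 (adjusted p = 0.0391), beside 5.82% of all genes. Averaged over the transfections, 0 passed (limma), beside 0.0815% of all genes, with 0 by voom and 1 at an unadjusted p under 0.05, CYP1A1 at 0.83 ± 0.191 (adjusted p = 0.223, same-bin median 0.21).

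**Figure D3:**
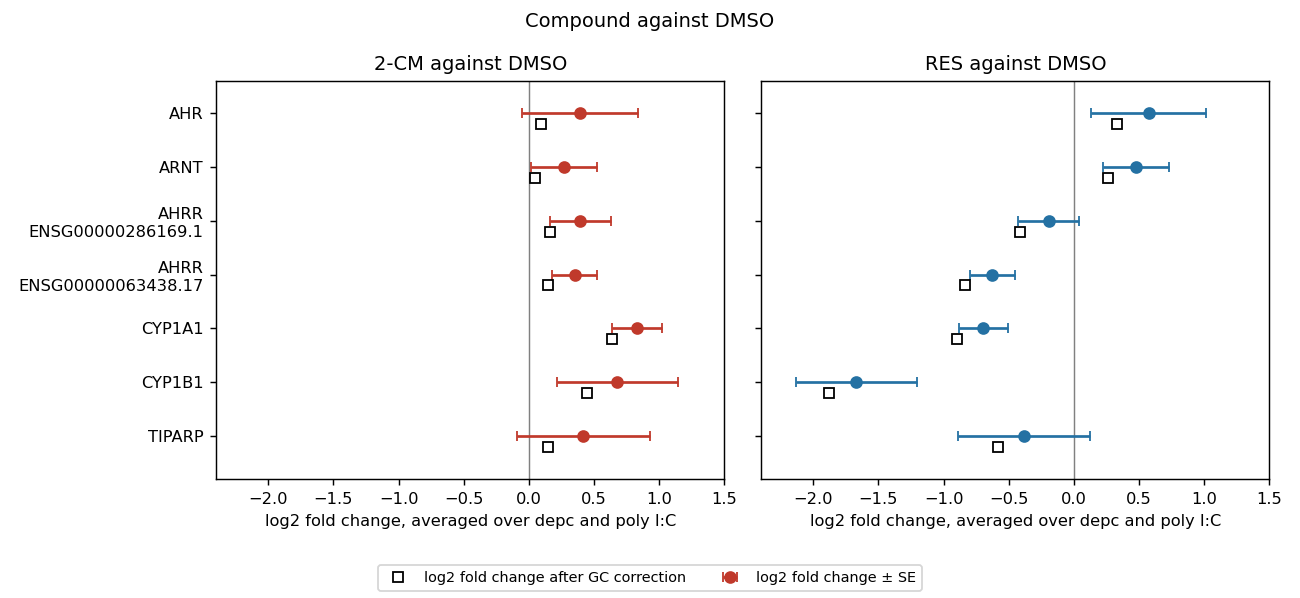
Log2 fold change of 2-CM and of RES against DMSO, averaged over depc and poly I:C (horizontal axes), for each gene identifier, with bars of 1 standard error from limma and open squares after GC correction. Under RES the points of CYP1B1, CYP1A1 and AHRR ENSG00000063438.17 lie at -1.67, -0.69 and -0.63 and those of AHR and ARNT at 0.57 and 0.48.

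The other genes of the pathway were taken from 5 lists by role, 28 genes in all, of which 16 passed the filter. With poly I:C, 8 of the 16 rose and 2 fell under 2-CM, 0 rose and 3 fell under DMSO, and 0 were called under RES (limma), where 3.0 had an unadjusted p under 0.05 and voom called 0.0. All genes were called at 49.3% under 2-CM, 37.5% higher, at 4.08% under DMSO and at 0.442% under RES. After GC correction 5 rose and 4 fell under 2-CM, beside 29.1% of all genes called, 1 rose and 6 fell under DMSO, beside 16.9%, and 0 rose and 2 fell under RES, beside 3.38%. Those 2 were EP300 at -0.94 (adjusted p = 0.00557) and SLC7A5 at -0.54 (adjusted p = 0.0254). Voom called 10 of the 16 under 2-CM, beside 49.4% of all genes, and 0 under DMSO. In the cytosolic complex under 2-CM, 3 of 3 rose: HSP90AA1 (2.15 ± 0.564, adjusted p = 0.0281), PTGES3 (1.89 ± 0.572, adjusted p = 0.0323) and HSP90AB1 (1.13 ± 0.407, adjusted p = 0.0473). After GC correction HSP90AA1 was still called, at 0.89 (adjusted p = 0.0249), while PTGES3 was at 0.37 (adjusted p = 0.138) and HSP90AB1 at 0.22 (adjusted p = 0.424). The list median was 1.89, against 0.61 over all genes. Among the related bHLH-PAS factors HIF1A rose by 2.75 ± 0.831 (adjusted p = 0.0323), 1 of 2 tested, and was at 0.88 after GC correction (adjusted p = 0.0647), EPAS1 was at 0.76 (adjusted p = 0.0570) and was called at 0.75 after it (adjusted p = 0.0425), and ARNT2, an alternative partner, reached at most 0.190 TPM.

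Of the 5 coregulators under 2-CM, 2 rose, NRIP1 (2.61 ± 0.718, adjusted p = 0.0292) and NCOA1 (1.13 ± 0.416, adjusted p = 0.0497). GC correction left NRIP1 at 0.74 (adjusted p = 0.0296) and turned NCOA1 to -0.13 (adjusted p = 0.527). Under DMSO 1 fell, the acetyltransferase EP300, by 1.35 ± 0.306 (adjusted p = 0.0477), and it was at -1.35 after GC correction too. After that correction 4 of the 5 coregulators were called lower under DMSO, the others being NCOA1 at -0.75 (adjusted p = 0.0117), NCOA2 at -0.99 (adjusted p = 0.0266) and NCOA3 at -0.75 (adjusted p = 0.00975). EP300 was then also called lower under 2-CM, at -0.41 (adjusted p = 0.0445), from 0.50 (adjusted p = 0.189) before it. Of the 10 further targets 4 were tested. SLC7A5, an amino acid transporter, fell by 1.33 ± 0.208 under DMSO (adjusted p = 0.0191) and fell by 1.39 ± 0.208 under 2-CM (adjusted p = 0.0151), and CYP2S1, another cytochrome, fell by 1.24 ± 0.252 under DMSO (adjusted p = 0.0380) and fell by 1.05 ± 0.252 under 2-CM (adjusted p = 0.0274). After GC correction SLC7A5 was at -0.86 and -0.87, and CYP2S1 at -0.76 and -0.53, all 4 still called. NFE2L2, the NRF2 factor, rose by 2.37 ± 0.629 under 2-CM (adjusted p = 0.0283) and was at 0.57 after GC correction (adjusted p = 0.0434), while NQO1 lay between 55.6 and 74.5 TPM in all libraries and was at 0.04 under 2-CM (adjusted p = 0.844). GC correction took NQO1 to -0.86, a call (adjusted p = 0.0180). CYP1A2, ALDH3A1, UGT1A1, UGT1A6, EREG and SERPINB2 reached at most 0.118 TPM. SLC7A5 was the 1 gene of the 16 called for RES against DMSO averaged over transfections, at -0.92 ± 0.147 (adjusted p = 0.0109), and it lay at -1.16 after GC correction. That is 6.25% of the list, beside 7.91% of all genes called. After GC correction 3 were called lower, beside 22.5% of all genes, the others being PTGES3 at -0.51 (adjusted p = 0.0182) and NRIP1 at -0.56 (adjusted p = 0.0231).

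Enzymes that form or remove tryptophan-derived ligands were mostly at or near 0. AFMID, 1 of 2 tested, rose by 1.05 ± 0.274 under 2-CM (adjusted p = 0.0281) and by 0.82 ± 0.158 averaged over the compounds (adjusted p = 0.00766). On that average 2 of the 16 tested genes of the lists were called higher and 3 lower, beside 31.2% of all genes called. Under DMSO AFMID was at 1.13 ± 0.274 (adjusted p = 0.0576), and after GC correction it was called there at 1.31 (adjusted p = 0.00368) and under 2-CM at 0.82. IL4I1, the other, ran from 1.52 to 3.57 TPM. Averaged over the compounds it was at -0.10 (adjusted p = 0.511). After GC correction it was called there at 0.39 (adjusted p = 0.0315), beside 36.7% of all genes. IDO1, which opens the kynurenine route and is a known interferon target, was listed at 0 in all 6 depc libraries. It was at 0.576 and 0.116 TPM in DMSO poly I:C, 0.952 and 1.86 TPM after 2-CM with poly I:C, and 0.0853 and 0.268 TPM in RES poly I:C. It did not pass the filter. TDO2, IDO2, KYNU and KMO reached at most 0.291 TPM.

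**Figure D4:**
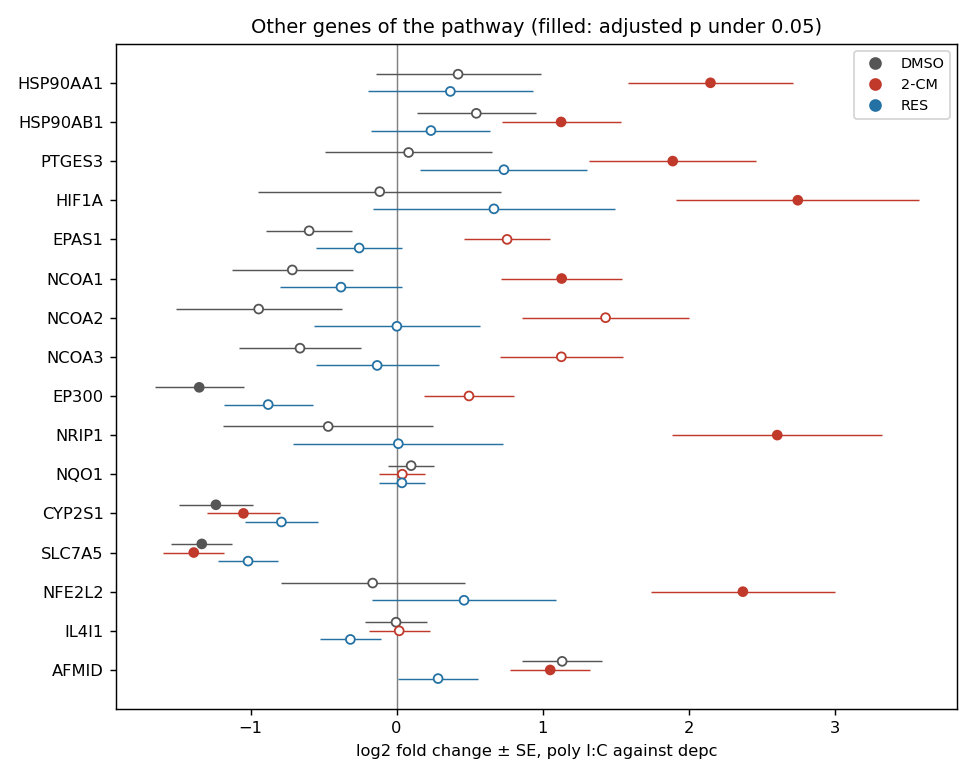
Log2 fold change of poly I:C against depc (horizontal axis) for the 16 tested genes of the role lists under DMSO (grey), 2-CM (red) and RES (blue), with bars of 1 standard error and filled points for an adjusted p under 0.05. Filled points include SLC7A5 at -1.33 under DMSO and -1.39 under 2-CM, and HIF1A at 2.75 under 2-CM, and RES has none.

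Across the 12 libraries the members did not follow a common profile. On log2(TPM + 1), Pearson's r was 0.90 between AHR and ARNT, 0.85 between AHR and TIPARP, 0.86 between CYP1B1 and TIPARP, 0.49 between CYP1B1 and CYP1A1, and -0.29 between AHR and CYP1A1. With AHRR ENSG00000063438.17 and ENSG00000286169.1, r was 0.80 and 0.66 for CYP1A1, 0.65 and 0.43 for CYP1B1, and -0.16 and 0.05 for AHR. The points share depth, GC deviation and the 2-CM poly I:C libraries, so these values are a description. Among 10178 genes with a mean of 5 TPM or more, 2586 correlated with AHR above 0.9, 1562 with TIPARP and 670 with ARNT, against 59 with CYP1B1 and 30 with CYP1A1. The genes nearest to CYP1B1 were NEFL (0.98), SRD5A3 (0.97) and HMGA2 (0.97), and those nearest to CYP1A1 were PROSER2 (0.96), CRABP2 (0.96) and SAPCD2 (0.96). AHR lay nearest to PLEKHA1, CLINT1 and ATPSCKMT, at 0.99 each, TIPARP to OTULINL, RAD21 and IPO5, at 0.99 each, and ARNT to FBXW2, QRICH1 and ADIPOR2, at 0.98 each. AHRR ENSG00000063438.17 lay nearest to KIFC1 (0.94), TROAP (0.92) and B3GNT7 (0.91), and ENSG00000286169.1 to SNORD62B (0.87) and LARP1 (0.86).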

How the data were processed

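RNA was sequenced as stranded paired-end poly(A) libraries with reads of 101 bases. The authors aligned reads to hg38 with HISAT2 2.1.0 after bcl2fastq 2.20, and used StringTie and DESeq2, per the submitters' processing notes. Per the file headers, StringTie 2.0.4 ran on the GENCODE 32 annotation, limited to annotated transcripts, with no strand option, and wrote a coverage, FPKM and TPM value per transcript. For each compound the authors also deposited 1 table of poly I:C against depc with log2 fold changes, their standard errors, raw p-values and adjusted ones, per the file headers. Other columns of per-sample values numbered 0.

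Transcript TPM was summed to genes (Python 3.11.15). In R 4.3.3, limma 3.58.1 fitted 6 group means to log2(TPM + 1), pseudocount 1, with trended variances (residual degrees of freedom 6, prior 2.74 at the median). The 17185 genes that reached 1 TPM in 2 libraries or more entered 12 contrasts, and calls used an adjusted p under 0.05. The count model planned for counts was not used, since no counts were read. The fold of low genes is understated on this scale. GC content came from GENCODE 44 for 99.8% of tested genes, in 20 bins. Estimated reads are coverage times length over read length. The script was tested on simulated data with independent noise of the same spread for all genes. Such data lack the GC deviations of these libraries, so error rates here were not tested. The members and lists were chosen with earlier results of these data known. Named genes were all members, called genes of the 5 lists, the genes most correlated with each member (at most 3), and transcripts with 20% or more of a gene's TPM. MUC7, on the marker list, is not among the gene names used here. Of the listed and correlated genes, 2 are not reported here, and counts over the lists leave them out.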

Additional observations from a re-analysis of the deposited data

How the results depend on the processing

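The fits were repeated in 10 other ways: with FPKM, with voom on estimated reads, with GC correction, with upper-quartile or median-of-ratios scaling, with all genes or those of 5 TPM or more, with 0.1 as the pseudocount, with the replicate block, and with the compared groups alone. Each of the 12 libraries was also left out, and the AHRR identifiers were summed. Of the 84 pairs of a member and a comparison, the 32 whose fold change is discussed gave 712 values: 626 kept their direction and side of the threshold, 41 lost a call, 30 gained one and 15 changed sign. Over all 84 pairs, leaving aside the summed identifiers, 86 of 1848 values changed sign. The 15 sign changes were in values not called as reported. AHRR ENSG00000063438.17 under 2-CM went to -0.10 with FPKM, -0.54 with upper-quartile scaling, -0.74 with median-of-ratios scaling, -0.0786 with voom and -0.0343 with both identifiers summed, and ran from -0.20 to 0.28 with a library left out. AHRR ENSG00000286169.1 under 2-CM went to 0.0144 with voom and 0.36 after GC correction, was called lower at -0.82 with median-of-ratios scaling (adjusted p = 0.0356), and ran from -0.38 to 0.25 with a library left out. AHRR ENSG00000063438.17 averaged over the compounds went to 0.30 after GC correction and ran from -0.133 to 0.0257 with a library left out, and TIPARP for RES against DMSO averaged ran from -0.824 to 0.0593. Called members for poly I:C under 2-CM, 4 as reported, were 0 without a filter, 1 after GC correction, 3 with a pseudocount of 0.1, 5 with FPKM, 5 with the compared groups alone, and 0 to 5 with a library left out, beside 1.61%, 29.1%, 45.7%, 52.7%, 69% and 0.215% to 59.1% of all genes. Averaged over the compounds, 2 became 1 without a filter and 1 to 3 with a library left out (13.6% to 53.4% of all genes). Under DMSO the count was 0 to 1 with a library left out (0.145% to 5.28%). For RES against DMSO averaged, 0 became 1 with FPKM, 1 with upper-quartile scaling, 1 with median-of-ratios scaling, 1 with voom, 4 after GC correction and 0 to 1 with a library left out (1.04% to 8.12%). GC correction also gave 3 for RES with depc, 1 for RES with poly I:C and 1 for 2-CM with poly I:C. Without a filter more genes were tested, and the cause of the other changes was not tested.

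Groups share replicate numbers 1 and 2. The differences between replicates correlated at 0.153 to 0.761 in the 10 pairs of groups without RES poly I:C, and at -0.796 to -0.307 in the 5 pairs with it. Since pairing was taken to need every correlation above 0.1, the numbers were not used as pairs, although 5 of the 6 groups deviated alike. With the replicate number as a replicate block, 4 members were called for poly I:C under 2-CM and 2 on average, as without it. All genes were then called at 51.8% and 33.3%. The lowest estimated reads of any member were 35.0, in 1 CYP1A1 library, and CYP1A1 reached 613. AHRR ENSG00000063438.17 ran from 78.2 to 217 and so stayed low in every library.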

Other observations

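The ratio of CYP1B1 to TIPARP TPM was looked at after the values were seen. It was 0.984 to 1.41 in the 4 RES libraries, 3.06 to 3.90 in the 4 2-CM libraries and 1.87 to 4.20 in the 4 DMSO libraries. Each RES library lay below each of the other 8. Within a library the ratio keeps only the unequal change of the 2 genes, and their GC contents are 46.9% and 41.4%. The ratio of CYP1B1 to CYP1A1 ran from 1.56 to 20.0 in the RES libraries, so it did not separate them from DMSO at 6.26 to 16.3.

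The TPM of both AHRR identifiers together was 19.0 to 20.0 in the 4 2-CM libraries, 12.2 to 18.3 in the DMSO libraries and 7.99 to 15.6 in the RES libraries. In TPM the 2-CM libraries were above the other 8, with depc and with poly I:C. Estimated reads, not scaled to depth, did not all keep this order. ENSG00000286169.1 had 1241 and 1055 in 2-CM depc, beside 1321 and 1158 in DMSO depc. ENSG00000063438.17 had 217 and 213 in 2-CM depc, beside 150 and 190 in DMSO depc. The part of the division of reads between transcripts in this sum was not tested. These ranges were also chosen after the values were seen, and no test was made of them.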
